A study of Homo sapiens with 6 samples.

Results

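The cadherin genes of kidney and other epithelia were examined in A-498 cells, an established line from a human renal cell carcinoma, after treatment with zebularine. Zebularine is a cytidine analogue that inhibits DNA methyltransferases. The family was defined as 10 genes, CDH1, CDH2, CDH3, CDH4, CDH5, CDH6, CDH11, CDH13, CDH16 and CDH17, each represented by every probe set annotated to that gene and to no other. A probe set is a group of short probes on the array that are read together as 1 signal, and it can match more than 1 transcript. In all, 8 of the 10 genes had such probe sets, 15 of the 22215 on the array that are not controls; CDH4 and CDH13 were not analysed here. The array annotation used here named 11963 genes in this way. Testing required a signal of 78.6 or more, the 40th percentile of all signals, on at least 3 of the 6 arrays, which 9 of the 15 met: 4 for CDH6, 2 each for CDH2 and CDH11 and 1 for CDH17. The family was chosen by measured values of this same comparison, the falls of CDH6 and CDH17 after zebularine, which were already known. The cadherin values below are therefore a description, printed with fitted differences and standard errors and with no p-value.

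The treated group was 3 A-498 cultures kept for 120 h with 1000 µM zebularine, and the untreated group was 3 A-498 cultures kept for 120 h without the drug. Both groups grew as monolayers in the same medium and were passaged on the way. Each culture gave 1 array, and 1 treated and 1 untreated array shared each of 3 experiment numbers. All cultures came from 1 cell line, so the spread between arrays says nothing about other lines or about kidney tissue.

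Cadherins are membrane proteins that hold neighbouring cells together when calcium is present. Their extracellular repeats bind cadherins of the next cell. In the classical members the intracellular tail binds beta-catenin and p120 catenin, and alpha-catenin links this complex to actin. CDH1 (E-cadherin) is the cadherin of most epithelia, while the proximal tubule of the human kidney, from which clear cell carcinomas are thought to arise, is known for CDH2 (N-cadherin) and CDH6 (K-cadherin). CDH16 (kidney-specific cadherin) and CDH17 (liver-intestine cadherin) carry more extracellular repeats and a short tail without the catenin-binding region.

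Of the measured members, CDH2 had entries in the RefSeq promoter table of build GRCh38.p14, both on the minus strand of chromosome 18, and they are shown because zebularine acts on methylation of cytosine in CpG dinucleotides. Each window runs from 250 bases before to 50 bases after an annotated transcript start, at chr18:28177081-28177380 and chr18:28036592-28036891, and capitals mark each CpG.
CDH2 promoter upstream start: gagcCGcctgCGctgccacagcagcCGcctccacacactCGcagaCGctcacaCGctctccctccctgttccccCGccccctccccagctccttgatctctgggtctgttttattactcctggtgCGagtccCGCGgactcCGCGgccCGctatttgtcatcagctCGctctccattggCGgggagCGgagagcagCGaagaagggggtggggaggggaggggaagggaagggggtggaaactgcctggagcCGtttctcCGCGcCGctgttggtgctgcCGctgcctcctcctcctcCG
CDH2 promoter downstream start: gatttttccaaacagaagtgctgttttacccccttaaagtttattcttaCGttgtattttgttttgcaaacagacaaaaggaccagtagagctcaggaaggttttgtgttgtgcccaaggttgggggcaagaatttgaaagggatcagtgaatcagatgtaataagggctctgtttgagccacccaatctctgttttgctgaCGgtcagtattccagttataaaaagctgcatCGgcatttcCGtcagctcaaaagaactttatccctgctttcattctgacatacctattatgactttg
The upstream window held 23 CpG and 67% G or C, and 35.8% of 35116 promoter windows of 300 bases in the table held at least as many CpG. The downstream window held 4 CpG and 40.7% G or C, and 75.5% of the windows held at least as many. The arrays measured transcripts and not methylation, and the probe sets of CDH2 do not say which start was used.

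The mean signal between the 2nd and 98th percentile was 500.2 on each of the 6 arrays, so close medians say little about how alike they were. Their median signals were 126.5 to 134.4 units in treated and 117.9 to 140.8 in untreated cultures. Both arrays of experiment 3 had lower maxima, 28721 treated and 31176 untreated, than the other 4 arrays, at 66290 to 71174. The median of 9 control probe sets for spiked-in RNA was lower there too. It was 1375 treated and 1210 untreated in experiment 3, against 3328 to 3835 on the other 4 arrays. For GAPDH the 3' signal over the 5' signal, a sign of RNA integrity, was 1.01 to 1.34 in treated and 1.07 to 1.52 in untreated cultures. For ACTB it was 5.25, 2.06 and 1.49 in treated cultures 1, 2 and 3, against 3.1, 2.38 and 1.71 in untreated ones, so the treated array of experiment 1 stood apart; its part in the values below was not tested. Markers of the tumour line ranged widely in signal, and 7 of 9 were on the array. VIM (vimentin) averaged 27970 ± 6905 in treated and 23870 ± 4316 in untreated cultures (SD, n = 3 each, here and below). KRT18, a keratin of simple epithelia, averaged 14950 ± 2424 in treated and 18810 ± 2599 in untreated cultures. PAX8, the kidney lineage factor, averaged 858 ± 229.5 in treated and 1145 ± 103 in untreated cultures. PAX2, another kidney factor, was dimmer, at 193 ± 49.9 in treated and 209 ± 68 in untreated cultures. None of the 7 tested identity genes was called by limma (0 at an unadjusted p under 0.05, against 13.1% of all tested genes, and 0 when the experiment number entered the fit as a block). Markers of endothelium, blood cells and fibroblasts were dim, with 1 gene of each list tested out of 7, 7 and 6 on the array. The highest single signals of these 3 lists were 136, 137 and 580, the last from COL1A1. Their summed signals on the treated arrays ran from 337 to 529, 412 to 448 and 825.5 to 1187, and on the untreated arrays from 331 to 627, 296 to 311 and 633.5 to 857. The blood cell sums did not overlap between the groups; the part of these cell types in the values below was not tested. The tested genes TEK, ITGAM and COL1A1 differed by -0.84, 0.94 and 0.94 on the log2 scale used below (limma, adjusted p = 0.619, 0.559 and 0.313). PECAM1 and VWF, which define endothelium, and PTPRC, which defines blood cells, did not exceed 90.2, 99.5 and 56.

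CDH6 was lower in treated cultures at each of its 4 tested probe sets. Its brightest probe set, 214803_at, read 174.5, 103 and 209 signal units in zebularine experiments 1, 2 and 3, against 1407, 2209 and 584 in the untreated cultures. The groups were well apart: the highest treated array lay below the lowest untreated array. The treated mean of 162 ± 54.2 was 11.6% of the untreated mean of 1400 ± 812 (SD, n = 3). On the log2(signal + 16.34) scale, on which all differences were fitted, zebularine minus untreated was -2.85 ± 0.42 (standard error). The added 16.34 units damp the noise of dim signals and understate the change of dim genes. In whole cultures a smaller number of cells with a transcript and less of it per cell cannot be told apart.

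The other probe sets of CDH6 gave the same direction at lower signals. Probe set 205532_s_at read 85.4, 82.5 and 188 in treated cultures, against 457, 894 and 247 in untreated ones. Probe set 210601_at read 42, 53.5 and 59.8 in treated cultures, against 226, 393 and 132 in untreated ones. Probe set 210602_s_at read 7.8, 4.9 and 51 in treated cultures, against 304, 750.1 and 168 in untreated ones. In all 3 the treated and untreated arrays did not overlap, and the treated mean was 22.3%, 20.7% and 5.21% of the untreated mean. The fitted differences were -1.93 ± 0.45 for 205532_s_at, -1.86 ± 0.46 for 210601_at and -3.45 ± 0.62 for 210602_s_at. With the constant of 16.34 the last was the lowest of all 13545 tested probe sets, and with a constant 4 times larger it was not, at -2.29 against -2.54 for 214803_at. Both 210601_at and 210602_s_at reached the filter signal on the 3 untreated arrays and on none of the treated ones, so they could enter the test only because the untreated cultures were brighter. The treated signals of 210602_s_at lay partly under the added constant, and its difference was -4.75 with no constant. The fifth probe set, 205533_s_at, was too dim to test. It read 2.9, 8.3 and 59.5 in treated cultures, against 101, 96.8 and 42.5 in untreated ones, and was the only probe set of CDH6 that was higher on the treated array of experiment 3.

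CDH17 was also lower in treated cultures. Its 1 probe set, 209847_at, read 92, 21.5 and 213 in zebularine experiments 1, 2 and 3, against 656, 496 and 533 in untreated cultures. The groups did not overlap, and the treated arrays spread far more than the untreated ones, with a highest-to-lowest ratio of 9.9 against 1.32. The treated mean of 109 ± 96.8 was 19.4% of the untreated mean of 562 ± 83.8 (SD, n = 3). The fitted difference was -2.55 ± 0.51. For CDH6 the larger relative spread at 214803_at was on the untreated side, with a ratio of 2.03 in treated and 3.78 in untreated cultures.

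**Figure D1:**
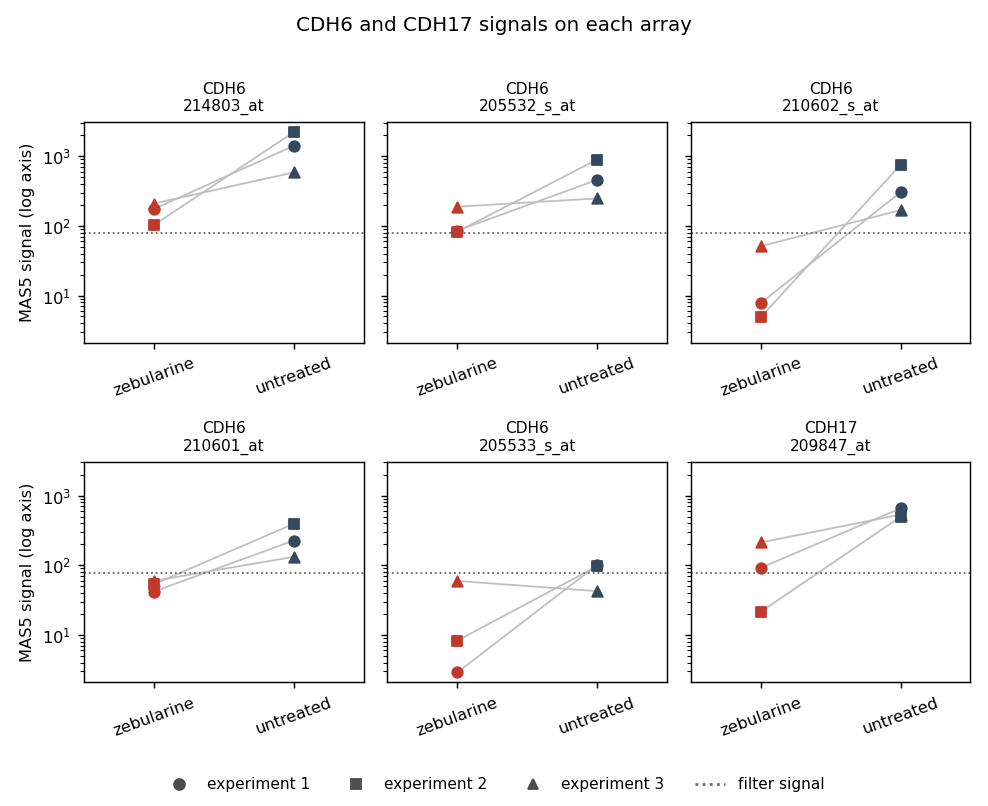
MAS5 signal on a log axis for the 5 probe sets of CDH6 and the 1 of CDH17, with the 3 zebularine arrays left and the 3 untreated arrays right; grey lines join the arrays of 1 experiment and the dotted line is the filter signal of 78.6. The treated points lie below all untreated points in 5 of the 6 panels; in 205533_s_at they overlap.

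The size of the difference followed the experiment in the same order for CDH6 and CDH17. At 214803_at the log2 difference was -2.90, -4.22 and -1.41 in experiments 1, 2 and 3. For CDH17 it was -2.63, -3.76 and -1.26. It was largest in experiment 2 and smallest in experiment 3 at all 5 tested probe sets of the 2 genes, 4 of which report CDH6. Probe set 205532_s_at had the smallest value, -0.36 in experiment 3. Among the 37 other probe sets called lower, 8 had this order. Of the 13545 tested, 2527 had their lowest signed difference in experiment 2 and their highest in experiment 3. That count includes probe sets that rose, so it is not a share for the order of size. The median difference of these 37 was -1.51, -1.84 and -1.73 in experiments 1, 2 and 3. Among the untreated arrays, CDH6 was lowest in experiment 3 at all 5 probe sets and CDH17 was not. Among the treated arrays both were highest in experiment 3. Experiment 3 is also the one with the lower maxima and the lower signals of spiked-in RNA, and the part of that in these values was not tested.

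**Figure D2:**
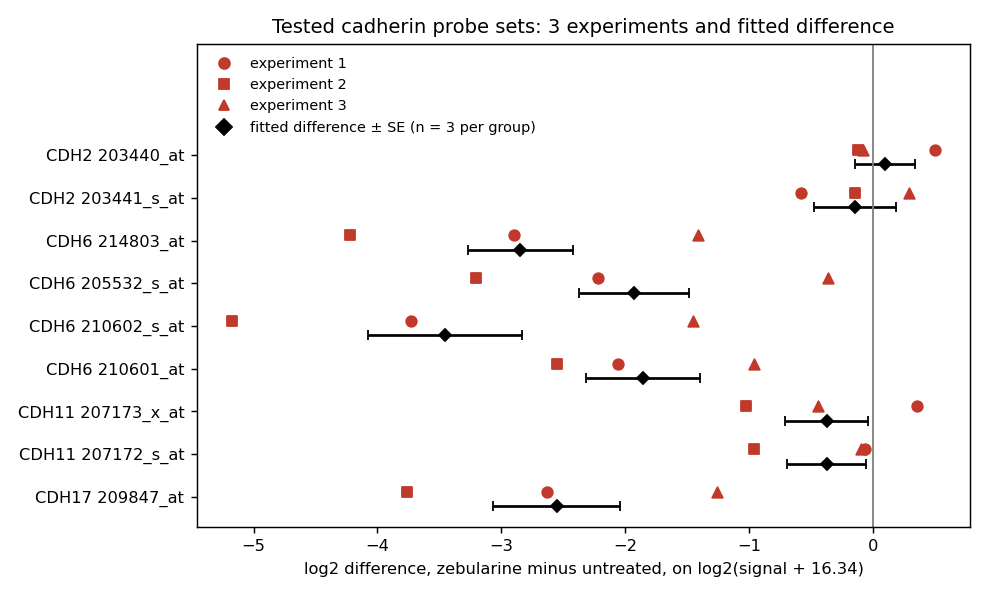
Log2 difference, zebularine minus untreated on log2(signal + 16.34), for the 9 tested cadherin probe sets; red symbols are the 3 experiments and black diamonds the fitted difference with its standard error (n = 3 per group). The CDH6 and CDH17 values lie left of 0 in each experiment, with experiment 2 farthest from 0 and experiment 3 nearest, while the fitted differences of CDH2 and CDH11 lie between -0.37 and 0.10.

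CDH2 and CDH11, the other classical cadherins bright enough to test, overlapped between the groups and had fitted differences nearer 0. CDH2 read 2823, 1986.1 and 2370 in treated cultures, against 1986.2, 2160 and 2509 in untreated ones, at 203440_at. The treated and untreated arrays overlapped, with a fitted difference of 0.10 ± 0.24. Its second probe set, 203441_s_at, read 299, 654 and 494 in treated cultures, against 456, 726 and 400.5 in untreated ones. Those groups overlapped too, at a difference of -0.15 ± 0.33, and the single experiments disagreed in sign, at -0.58, -0.15 and 0.29. CDH11 (OB-cadherin), known from mesenchymal and bone-forming cells, read 600.1, 251 and 524 in treated cultures, against 466, 529 and 718 in untreated ones, at 207173_x_at. Its second probe set, 207172_s_at, read 274, 137 and 242 in treated cultures, against 286, 283 and 259.8 in untreated ones. Both probe sets overlapped between the groups and both had their lowest signal on the treated array of experiment 2. Their fitted differences were -0.37 ± 0.34 and -0.37 ± 0.32. Without the treated array of experiment 2 they were -0.002 and -0.096.

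The remaining members were dim on nearly every array, and no difference was fitted for them. CDH1, the classical epithelial cadherin, read 25.4, 19.8 and 8.4 in treated cultures, against 64.5, 24.8 and 5.5 in untreated ones, at 201130_s_at. At 201131_s_at it read 4.1, 30.7 and 4.9 in treated cultures, against 63.3, 34.9 and 2.3 in untreated ones. Neither probe set reached the filter signal on any of the 6 arrays. CDH3 (P-cadherin), an epithelial cadherin best known from basal layers and placenta, read 82.2, 6.6 and 34.5 in treated cultures, against 7.7, 35.5 and 19.2 in untreated ones. CDH5 (VE-cadherin), which defines endothelium, read 30.1, 21.1 and 56 in treated cultures, against 7.3, 62.3 and 44.5 in untreated ones. CDH16, a marker of kidney tubule, read 4.7, 111 and 12.6 in treated cultures, against 126.5, 67.4 and 36.8 in untreated ones. All 5 of these probe sets overlapped between the groups and differed in sign among the 3 experiments. CDH16 reached the filter signal on 1 treated and 1 untreated array, CDH3 on 1 treated array and CDH5 on none. At such signals the arrays do not show whether the transcript is absent or only faint.

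**Figure D3:**
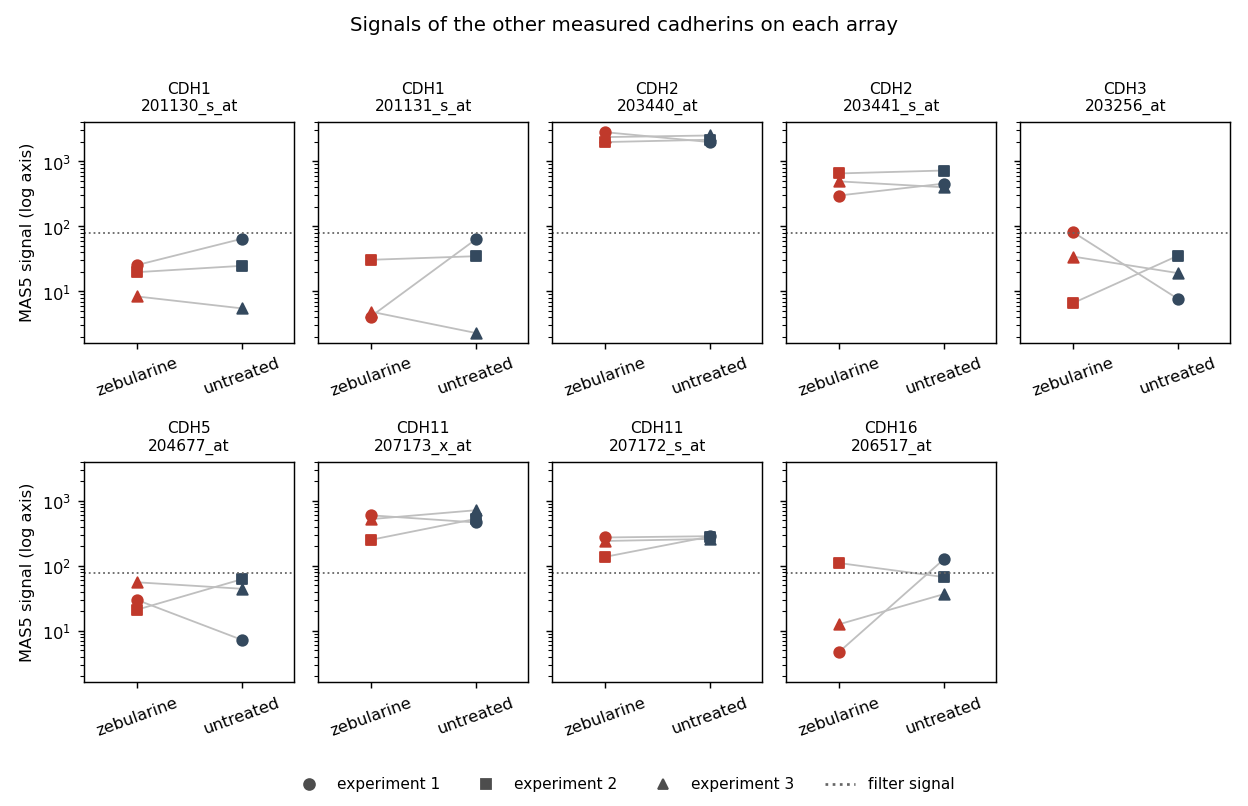
MAS5 signal on a log axis for the 9 probe sets of CDH1, CDH2, CDH3, CDH5, CDH11 and CDH16, drawn as for CDH6 and CDH17. CDH2 and CDH11 lie above the dotted filter signal of 78.6 on all 6 arrays, the others mostly below it, and the zebularine and untreated points overlap in each panel.

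In limma's fit over the whole table, 3 of the 9 tested cadherin probe sets were called lower at a Benjamini-Hochberg adjusted p under 0.05 and 0 were called higher. These were 214803_at and 210602_s_at of CDH6 and 209847_at of CDH17. Over all tested probe sets 0.295% were called lower and 0.325% higher. Same-numbered arrays deviated together, and when the experiment was added as a block all 5 tested probe sets of CDH6 and CDH17 were called lower, against 2.32% of all, and 0 cadherin probe sets higher, against 1.9% of all. The treated arrays lay below all untreated ones at 5 of the 9, against 8.88% of all tested probe sets, and the treated array was lower in all 3 experiments at 6 of the 9, against 21.8%. Nothing is read from these counts, since the same comparison brought CDH6 and CDH17 into the family. The median difference over all tested probe sets was -0.01. Without the treated array of experiment 2 or the untreated array of experiment 1, 0 cadherin probe sets were called in limma. In both fits 5 of 9 had an unadjusted p under 0.05, against 1315 and 1267 of all 13545 tested probe sets. Nothing is read from these counts either. Among the fits that left out 1 array, CDH17 was called in 1, the one without the treated array of experiment 3. CDH6 was called at 214803_at in each of the other 4 fits that left out 1 array.

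**Figure D4:**
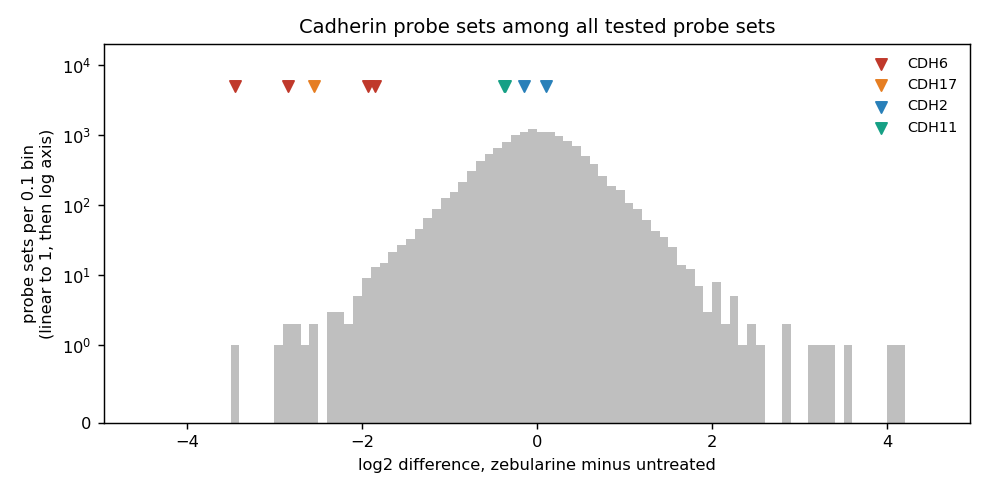
Number of probe sets per 0.1 bin of fitted log2 difference, zebularine minus untreated, for all 13545 tested probe sets, on an axis that is linear to 1 and logarithmic above; triangles at a fixed height mark the cadherin probe sets. CDH6 and CDH17 lie in the left tail between -3.45 and -1.86, and CDH2 and CDH11 lie between -0.37 and 0.10.

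The genes whose 3 within-experiment differences lay nearest to those of CDH6 and CDH17 were looked up among 7934 other tested genes, each at its probe set of highest mean signal, by root mean square distance. The same 5 genes were nearest to both cadherins. TMT1A, a thiol methyltransferase, was nearest to both, at 0.54 log2 units from CDH6 and 0.48 from CDH17. It read 26.2, 5.1 and 55.6 in treated cultures, against 334, 219 and 257 in untreated ones. The other 4 were KCNJ16, a potassium channel of the kidney tubule, CXCL14, a chemokine, ANXA13, an annexin of kidney and gut epithelium, and ID3, an inhibitor of basic helix-loop-helix factors. Their distances were 0.90, 0.92, 0.94 and 1.25 from CDH6 and 0.86, 0.63, 0.67 and 0.97 from CDH17. KCNJ16 read 57.1, 88.2 and 615 in treated cultures, against 1141, 936 and 1229 in untreated ones. ID3 read 327, 590.4 and 1100.1 in treated cultures, against 759, 4973 and 2016 in untreated ones. ANXA13 read 34.7, 14.2 and 33.2 in treated cultures, against 295, 172 and 121 in untreated ones. CXCL14 read 24.7, 14.4 and 87.2 in treated cultures, against 180, 194 and 279 in untreated ones. TMT1A, ANXA13 and CXCL14 could be tested only because the untreated cultures were brighter. CDH6 and CDH17 lay 0.32 from each other. Genes near 1 of them were therefore likely to be near the other, and nothing is read from the shared 5. All of these values come from the same 6 arrays.

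Of 14 genes on the array for the partners of classical cadherins and other adherens junction proteins, 8 were tested and 6 were too dim. Of the 8, 0 were called by limma, with or without the block. An unadjusted p under 0.05 was seen for 1, against 13.1% of all tested genes. CTNNA1 (alpha-catenin), which links cadherins to actin, averaged 5293 ± 1038 in treated and 4382 ± 588.5 in untreated cultures, a difference of 0.26 ± 0.25 (SD, n = 3; limma, Benjamini-Hochberg adjusted p = 0.705). VCL (vinculin), which strengthens that link, averaged 4773 ± 725 in treated and 4831 ± 787.5 in untreated cultures, a difference of -0.02 ± 0.24 (limma, adjusted p = 0.986). A second probe set of VCL differed by 0.74 (limma, adjusted p = 0.588 without and 0.384 with the block). CTNNB1 (beta-catenin) and NECTIN3, an adhesion protein of the same junction, were picked after their values were seen. CTNNB1 averaged 1467 ± 124 in treated and 1065 ± 100.2 in untreated cultures and lay higher after zebularine in 3 of 3 experiments, at 0.46 ± 0.24 (limma, adjusted p = 0.449). NECTIN3 averaged 267 ± 24.3 in treated and 126 ± 32.7 in untreated cultures, at 1.01 ± 0.33, also higher in 3 of 3 (limma, adjusted p = 0.227). Of all 7938 tested genes, 1706 were higher in 3 of 3 experiments and 1749 were lower in 3 of 3. The median difference of the 8 genes was 0.36, against -0.01 over all 7938 tested genes. In the other gene lists with more than 1 tested gene, medians ran from -0.59 for kidney tubule genes to 0.26 for repressors of CDH1. Nothing is read from these medians.

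Desmosomes join epithelial cells through their own cadherins, and 6 of their 12 genes on the array were tested. None was called by limma, while 3 had an unadjusted p under 0.05, against 13.1% of all tested genes, and the list's median was -0.10. DSG2 (desmoglein 2), the desmosomal cadherin of simple epithelia, read 6273, 3206 and 3352 in treated cultures, against 3139, 1986 and 1876 in untreated ones. Its treated arrays lay above all untreated ones, at 0.84 ± 0.31 apart (limma, adjusted p = 0.282 without and 0.0212 with the block). PERP, a desmosome-associated membrane protein, differed by 0.05 ± 0.25 (limma, adjusted p = 0.956). PKP3 (plakophilin 3), a plaque protein, was picked after its values were seen; it averaged 397 ± 115.5 in treated and 815 ± 258 in untreated cultures (limma, adjusted p = 0.198 without and 0.0303 with the block). A second probe set of PKP3 differed by -1.13 and was not called (limma, adjusted p = 0.285 without and 0.117 with the block).

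Among other members of the cadherin superfamily 7 of 24 genes on the array were bright enough to test. None was called by limma, and 2 had an unadjusted p under 0.05, against 13.1% of all tested genes. FAT1, a giant cadherin of the cell cortex, averaged 7247 ± 4527 in treated and 5835 ± 2274 in untreated cultures (SD, n = 3; limma, adjusted p = 0.89). CELSR1, a cadherin of planar cell polarity, averaged 416 ± 108 in treated and 744 ± 162 in untreated cultures, a difference of -0.82 ± 0.28 (limma, adjusted p = 0.254). Its relative CELSR2, picked after its values were seen, differed by -0.99 ± 0.31 and was called lower with the block (limma, adjusted p = 0.206 without and 0.041 with the block). A second probe set of CELSR2 differed by -1.09 and was called with the block too (limma, adjusted p = 0.256 without and 0.0436 with the block). Of 26 protocadherin genes 8 were tested and 0 called by limma, with or without the block (0 at an unadjusted p under 0.05). PCDHGB5 and PCDHGC3, whose clustered genes share sequence and may share probes, differed by -0.16 ± 0.38 and 0.01 ± 0.39 (limma, adjusted p = 0.896 and 0.995).

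Proteases that cut cadherins gave the single call among the companion lists. MMP7 (matrilysin), a secreted metalloproteinase known to shed CDH1, fell in treated cultures. It read 810.1, 965 and 799.9 in treated cultures, against 1930.1, 4207 and 2344 in untreated ones, and the groups did not overlap. The difference was -1.62 ± 0.30, lower in 3 of 3 experiments (limma, Benjamini-Hochberg adjusted p = 0.0337). The call ended without the treated array of experiment 1, 2 or 3 or the untreated array of experiment 3 (limma, adjusted p = 0.0555, 0.158, 0.0942 and 0.0984). The other 14 tested genes of this list were not called, with or without the block. ADAM10, the main sheddase of CDH1 and CDH2, was picked after its values were seen and averaged 4876 ± 1105 in treated and 4774 ± 929 in untreated cultures (limma, adjusted p = 0.981). Over the 13 companion lists limma called 1 of 73 tested genes, against 0.642% of all tested genes, and 14 of the 73 had an unadjusted p under 0.05, against 13.1% of all tested genes. With the block it called 5, CELSR2, PKP3 and MMP7 lower and DSG2 and ZEB1 higher, against 4.45% of all.

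Transcription factors that repress CDH1 were tested at 5 of 10 genes on the array. Limma called 0, and 2 had an unadjusted p under 0.05, against 13.1% of all tested genes. ZEB1, a repressor of CDH1 and a driver of mesenchymal transition, read 553, 413 and 546 in treated cultures, against 296, 190.5 and 266 in untreated ones. The groups did not overlap, and the difference was 0.97 ± 0.28, higher in 3 of 3 experiments (limma, adjusted p = 0.178 without and 0.0413 with the block). A second probe set of ZEB1 differed by 0.38 (limma, adjusted p = 0.741 without and 0.524 with the block). TCF3 differed by -0.20 ± 0.32 (limma, adjusted p = 0.838). Its other tested probe sets ran from -0.11 to 0.88, so they disagreed in sign, and none was called with or without the block. SNAI2, picked after its values were seen, differed by 1.06 ± 0.47, with 0.48, 0.23 and 2.48 in experiments 1, 2 and 3 (limma, adjusted p = 0.372).

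Lineage factors of kidney, liver and gut and genes of the kidney tubule gave no call. Of 12 lineage factors on the array 7 were too dim and 5 were tested. Limma called 0 of the 5, with or without the block (0 at an unadjusted p under 0.05). PAX8 differed by -0.44 ± 0.26 and PAX2, the other PAX factor of the kidney, by -0.09 ± 0.35 (limma, adjusted p = 0.53 and 0.946). The 7 other tested probe sets of PAX8 ran from -1.56 to 0.34, and none was called with or without the block. CDX2, a gut factor known to activate CDH17, did not exceed a signal of 19.3 on any array; it was picked after its values were seen. Of 16 tubule genes on the array 12 were too dim and 4 were tested. Limma called 0 of the 4, with or without the block. An unadjusted p under 0.05 was seen for 2 of them, against 13.1% of all tested genes. ANPEP and MME, peptidases of the proximal tubule brush border, differed by 0.67 ± 0.29 and -1.55 ± 0.53 (limma, adjusted p = 0.366 and 0.251). The treated signals of MME were 74.1, 15.2 and 86.4, so it could be tested only because the untreated cultures were brighter. Of 20 tight junction and polarity genes on the array 13 were too dim and 7 were tested. Limma called 0 of the 7, with or without the block. Here 2 had an unadjusted p under 0.05, against 13.1% of all tested genes. TJP1 (ZO-1), the scaffold under tight junctions, differed by 0.26 ± 0.23 and PARD3, a polarity scaffold, by -0.25 ± 0.26 (limma, adjusted p = 0.694 and 0.733). EPCAM, an epithelial adhesion molecule picked after its values were seen, did not exceed 70.1.

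**Figure D5:**
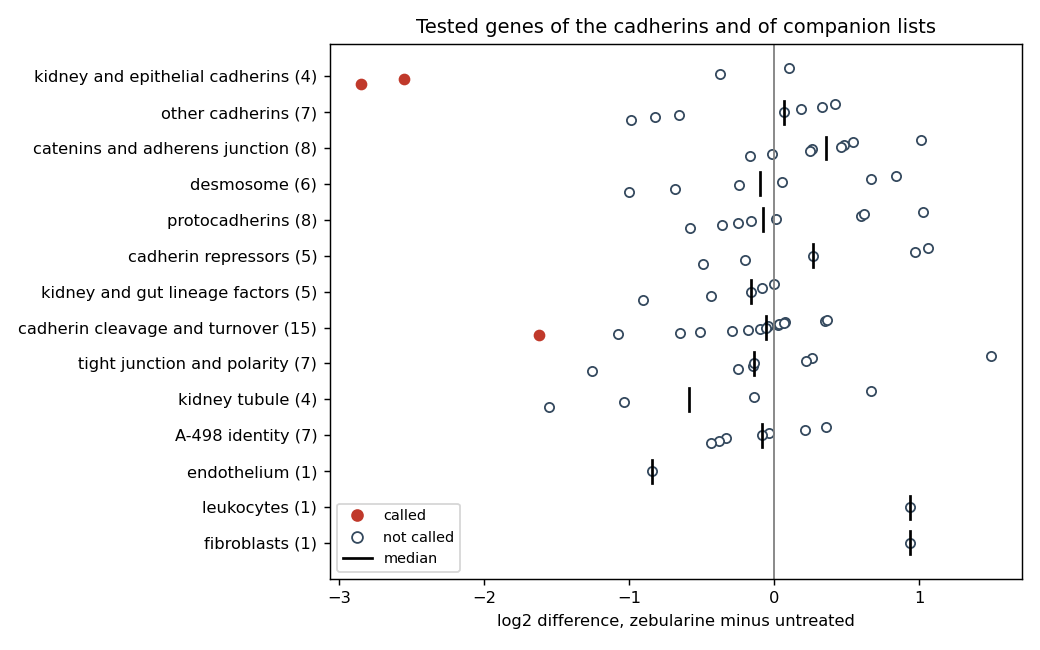
Fitted log2 difference, zebularine minus untreated, of each tested gene at its brightest probe set, for 4 kidney and epithelial cadherins and for 13 companion lists; red points were called by limma at an adjusted p under 0.05, open points were not, black bars are medians of the companion lists and numbers in brackets count tested genes. Called points are CDH6, CDH17 and MMP7, all left of 0.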

How the data were processed

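Total RNA of 6 A-498 cultures was hybridised to Affymetrix arrays. The deposited values are linear intensities, 1 per probe set and array, made by the authors with MAS5 per the submitters' processing notes; which version and settings were used is not stated in the sources at hand. MAS5 corrects for background and mismatch probes. The mean of the deposited intensities between the 2nd and 98th percentile was 500.2 on every array, so no further scaling was applied. Detection calls were not used here.

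From these, log2(signal + 16.34) was taken (the median of all values divided by 8), 62 of 22277 probe sets were left out as controls, and 13545 of the other 22215 passed the filter of 78.6 on at least 3 arrays. Groups and numbers came from the sample titles. The comparison of zebularine with untreated arrays used limma 3.58.1 (R 4.3.3; lmFit, then eBayes with its mean-variance trend; two-sided and without a block), adjusting over all 13545 by Benjamini-Hochberg; a call needed an adjusted p under 0.05. The fit was run on simulated data with independent noise on each array. Those data hold no shared deviation of same-numbered arrays, so they say nothing about the pairing. A gene is represented by its tested probe set of highest mean signal (7938 genes). Symbols came from the array annotation, 19064 probe sets with 1 symbol; 19052 matched RefSeq by Entrez number and 0 changed. Figures used matplotlib 3.10.9.

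Across probe sets, the deviations of the 2 arrays of experiments 1, 2 and 3 from the group means had correlations of 0.323, 0.21 and 0.272, so the numbers, which the labels also tie to 1 experiment name, were taken to pair the arrays, and values with the block are given where they change a call. No 2 arrays shared more than 0.198% of their values. The members, the 13 companion lists and the rule for named genes were chosen with earlier results of these data known. By that rule the text names all member probe sets, up to 4 called genes of each list or else its 2 brightest, and the 5 genes nearest in pattern to CDH6 and to CDH17; other genes are said to have been picked after their values were seen. Alternatives were other pseudocounts, filters and normalization, no trend, the block, the mean of a gene's probe sets, and leaving out each array or experiment. The number of arrays limits the precision.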

Additional observations from a re-analysis of the deposited data

How the results depend on the processing

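Tested cadherin probe sets kept the sign of their difference for CDH6 and CDH17 under all alternatives that used all arrays (8 each, and 7 for 210601_at and 210602_s_at, which the stricter filter removes) and in all fits without 1 array or 1 experiment. CDH6 at 214803_at ran from -2.97 to -2.54 with all arrays, from -3.37 to -2.42 without 1 array and from -3.56 to -2.16 without 1 experiment, and CDH17 from -2.90 to -2.00, -3.17 to -1.87 and -3.20 to -1.95. The calls depended on the setting. The count of cadherin probe sets called was 3. It was 1 with no pseudocount, with no filter or with a stricter filter at 223.8, and 5 with the replicate block. It was 0 with no trend, where 5 of 9 had an unadjusted p under 0.05, against 1532 of all 13545. Without 1 array or experiment it was 0 to 3. CDH6 at 214803_at was called in 7 of the 8 alternatives with all arrays, CDH17 in 2 of 8, and neither with no trend. The difference of 210602_s_at, -3.45, was -2.29 with the larger and -4.75 with no pseudocount, 2 of its 3 treated signals lying under the constant, and without experiment 3 it was -4.45, against -2.71 in place of -1.93 for 205532_s_at.

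Over all probe sets 84 were called, for 51 genes. The counts were 55 and 31 with the smaller pseudocount, 53 and 31 with none, 42 and 25 with no filter, 6 and 5 with no trend, and 572 and 353 with the replicate block. Without 1 array or experiment they ran from 0 to 96 probe sets and from 0 to 64 genes; 0 was reached without the treated array of experiment 2 and without experiment 2 (1315 and 1583 probe sets at an unadjusted p under 0.05). Of the companion lists 1 gene was called, 5 with the replicate block, and 0 to 1 without 1 array or experiment. With no trend the count was 0, with 13 of 73 genes at an unadjusted p under 0.05, beside 1532 of all 13545 probe sets. Genes near 0 changed sign when arrays were left out, with ranges of FAT1 -0.290 to 0.635, VCL -0.147 to 0.115, PERP -0.120 to 0.189, PCDHGB5 -0.482 to 0.044, PCDHGC3 -0.133 to 0.236, TCF3 -0.441 to 0.042 and PAX2 -0.361 to 0.092; the cause of these changes was not tested.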

Other observations

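Further epithelial genes, picked after their values were seen, are given as values. KRT19, a keratin of simple epithelia, averaged 290 ± 88.5 in treated and 114 ± 103 in untreated cultures (SD, n = 3), a log2 difference of 1.49 ± 0.51, higher in 3 of 3 experiments (limma, adjusted p = 0.251). Its untreated signals were 34.5, 230.6 and 77.9, so it could be tested only because the treated cultures were brighter. CLDN10, a claudin of kidney tubule tight junctions, averaged 60.5 ± 29.5 in treated and 163 ± 47.8 in untreated cultures, a difference of -1.26 ± 0.47, lower in 3 of 3 (limma, adjusted p = 0.292). Its treated signals were 34.2, 92.3 and 54.9, so it could be tested only because the untreated cultures were brighter. DSP (desmoplakin), which ties desmosomes to keratin, averaged 1585 ± 921 in treated and 899.5 ± 132 in untreated cultures, with differences of 1.51, 0.24 and 0.24 in experiments 1, 2 and 3 (limma, adjusted p = 0.46).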
